A study of Mus musculus with 2 samples.

Results

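Ion, metal and organic ion carriers are solute carrier genes of 11 families, taken here as every gene of the Slc4a, Slc8a, Slc9a, Slc12a, Slc13a, Slc20a, Slc22a, Slc26a, Slc30a, Slc34a and Slc39a families except Slc9a3, Slc26a3 and Slc12a2. The reference gene table held 99 such genes and all 99 had a probe. A carrier was kept when its probe was well above background on at least 1 of the 2 arrays, which left 66 of 99 (66.7%), against 14668 of 22909 genes with a probe on the arrays as a whole (64.0%).

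Solute carriers are membrane proteins that move small molecules either down their own gradient or by coupling them to the gradient of another ion, most often the sodium gradient that the sodium pump maintains. In the colon, sodium-proton exchangers, chloride-bicarbonate exchangers and sodium-bicarbonate cotransporters take up salt, set the pH of the cell and of the lumen and so drive the absorption of water. Zinc enters the cytosol through the Slc39a (ZIP) family and leaves it through the Slc30a (ZnT) family, phosphate enters through Slc20a and Slc34a, and Slc22a members carry organic cations, organic anions and carnitine.

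Gene expression was compared between whole colon tissues of Villin-Cre mice, which served as the control, and of Villin-Cre; EP4flox/flox mice (EP4 cKO), both on the C57BL/6 strain and, by the study's methods, 8 weeks old. EP4 is the prostaglandin E2 receptor encoded by Ptger4, both genotypes carried the Cre transgene, and the villin promoter expresses Cre in the intestinal epithelium, so that other cells of the colon kept their Ptger4. For each genotype the RNA of 3 pools of colon was combined and hybridized to 1 array, so no difference between the arrays could be set against a spread of replicates, and no gene has a p-value. The methods state n = 3 per genotype, whereas by the labels these are the pools combined on 1 array, which is how they are treated here. In such whole-tissue RNA, fewer cells of a type and less RNA per cell cannot be told apart.

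The values below are normalized signals, scaled so that the trimmed mean of each array was 2500, and ratios are EP4 cKO over Villin-Cre. Where a gene was not well above background on 1 array, its ratio is a bound. The dim side of a bound is the gene's own signal there or, if that was smaller, the floor of the array, meaning the smallest signal that passed the background filter (125 for Villin-Cre and 57.8 for EP4 cKO). Probes of different genes respond differently, so the level of a carrier is compared only between arrays for the same probe, and a summed signal of a marker list leans on its brighter probes. Ptger4 itself had signals of 6227 and 5661 on its brighter probe and of 393 and 592 on its dimmer probe, the control array given first here and in all pairs of signals below. Where these probes lie relative to the deleted part is not given in the sources used here, so Ptger4 does not check the labels, by which the arrays are named.

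Markers of some other cell types differed between the arrays. Of the fibroblast marker genes, 5 of 5 with a value were more than 2-fold lower on the EP4 cKO array, and their summed signal, with dim genes raised to the floor, was at least 33.1-fold lower. Red-cell markers were lower in 3 of 3, with a summed signal at least 27.1-fold lower. The summed signals of leukocyte, endothelium and smooth muscle markers were 1.30, 1.02 and 1.44 times those of the control, and those of goblet cell and enteric neuron and glia markers 1.28 and 1.33 times, though single markers lay past 2-fold, with log2 ratios of -2.73 for Cnn1 of smooth muscle, -1.43 for Uchl1 of neurons and 1.31 for Clca1 of goblet cells. The neuron and glia sum leaned on Snap25, with signals of 35809 and 50736 (0.50). The other markers of that list with a value were lower, namely Uchl1, Elavl4 (-0.82) and Tubb3 (-0.38), and the median of the list was -0.60. The median of the goblet cell markers was 0.01. The 7 of 7 epithelial markers were well above background on both arrays, with a summed signal 1.15 times higher on the EP4 cKO array. The part of these differences in the carriers' ratios was not tested.

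Most carriers differed by less than 2-fold between the arrays. Those past 2-fold were more often lower than higher in EP4 cKO colon with the reported scaling, were 2 in each direction with normexp and quantile normalization (4.13% of all genes higher and 2.69% lower), and were 23 higher and 2 lower with scaling to the spots of E1A, a spike-in control RNA of the array's maker (39.7% of all genes higher and 2.3% lower). Of the 66 carriers, 4 (6.06%) were more than 2-fold higher on the EP4 cKO array, namely Slc34a3, Slc26a4, Slc4a11 and Slc39a4, against 4.89% of all genes with a value. Another 7 (10.6%) were more than 2-fold lower, namely Slc30a10, Slc12a3, Slc22a6, Slc4a4, Slc22a30, Slc12a9 and Slc39a5, against 7.98% of all genes. Of the 55 carriers well above background on both arrays, 1 (1.82%) was more than 2-fold higher and 4 (7.27%) were more than 2-fold lower, against 4.05% and 6.26% of all such genes. These shares lay near those of all genes. Of the 11 carriers that were above background on 1 array only, 7 had a bound, and 4, namely Slc34a1, Slc34a2, Slc8a1 and Slc8a2, had no fold and entered the counts with a ratio of 0 on the log2 scale.

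The median log2 ratio of the 66 carriers was -0.18, with quartiles of -0.53 and 0.16, beside a median of -0.10 and quartiles of -0.45 and 0.18 for all genes with a value. A ratio below 0 was found for 41 of the 66 carriers (62.1%) and for 57.5% of all genes. Among genes well above background on both arrays, 38 of 55 carriers (69.1%) and 63.0% of all genes lay below 0, with medians of -0.26 and -0.15. The sign of such small ratios rests on the scaling. Scaling to the E1A spots added 1.04 to each log2 ratio measured on both arrays, so that every such ratio below 0 by less than 1.04 came out above 0, and the median of the carriers was 0.78 while that of all genes shifted by 0.98. Scaling to the 75th percentile added 0.16. Statements that genes lay within or past 2-fold hold for the reported scaling unless another is named.

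**Figure D1:**
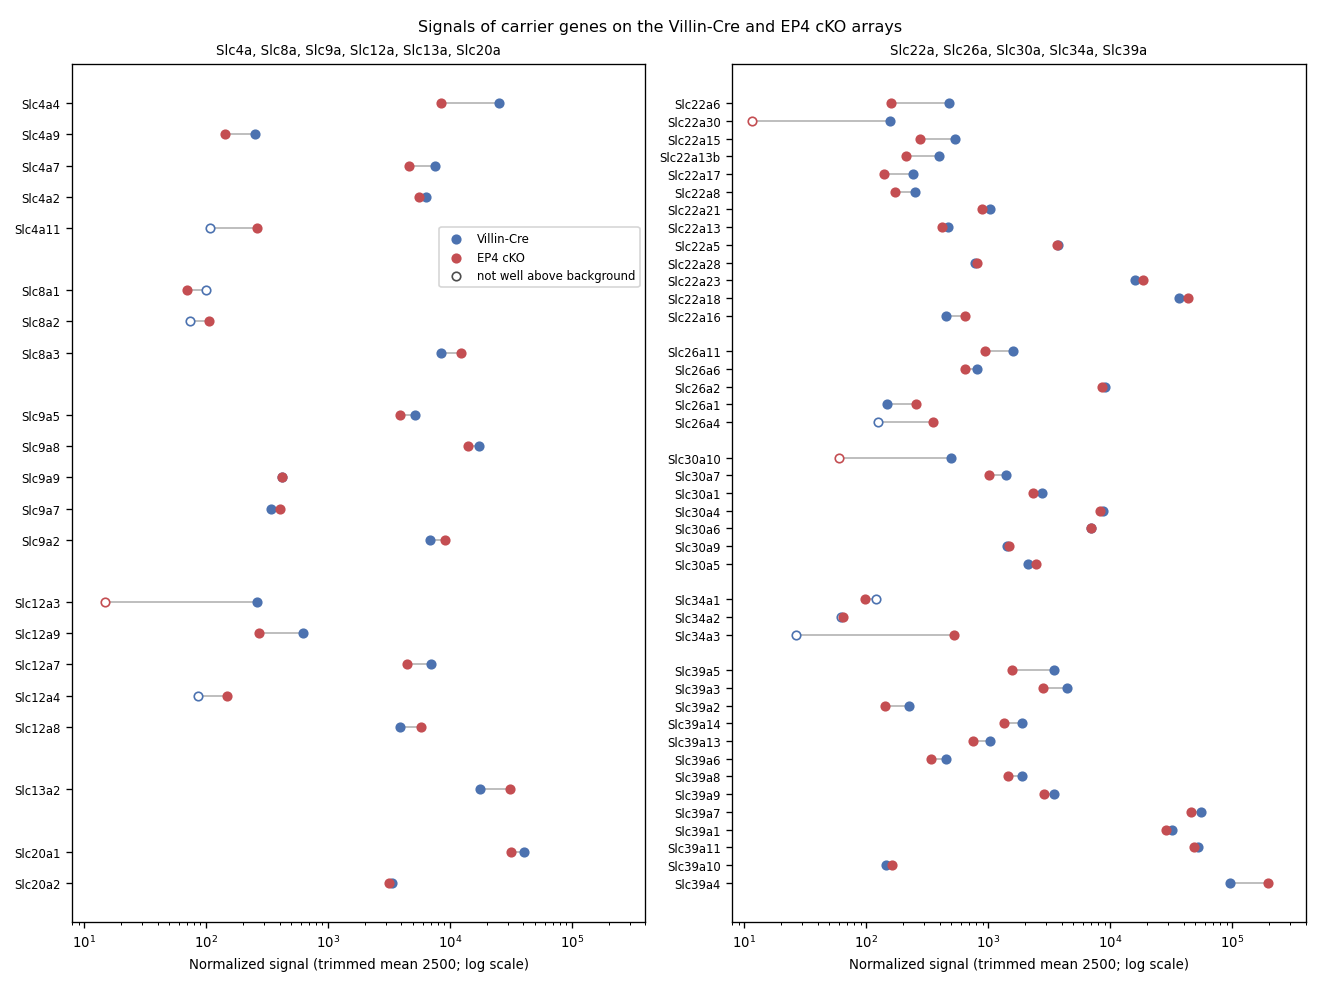
Normalized signal (log scale) of the carriers described in the text on the Villin-Cre array (blue) and the EP4 cKO array (red), grouped by family; a line joins the 2 signals of a gene, and an open circle marks a signal not well above background. Most pairs lie close together, while Slc30a10, Slc12a3, Slc22a30 and Slc34a3 combine a signal above background on 1 array with an open circle far to its left.

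Because the signals of a carrier can depend on its probe, carriers with more than 1 probe were compared between probes. Of 15 carriers with at least 2 probes that gave a fold, 3 had probes that differed in direction, Slc20a1, Slc30a9 and Slc9a8, and in none of these was a probe past 2-fold. In the 13 carriers with 2 probes well above background on both arrays, 12 had the same direction on both, and the ratios of their probes differed by a median of 0.27 and at most 0.51 on the log2 scale. Repeated spots of the same probe varied less, with a median SD of 0.034 over 287 probes. The error that the scanner software assigns to the log2 ratio had a median of 0.21 over the carriers kept, so a carrier close to a ratio of 2 has no firm side of that line.

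**Figure D2:**
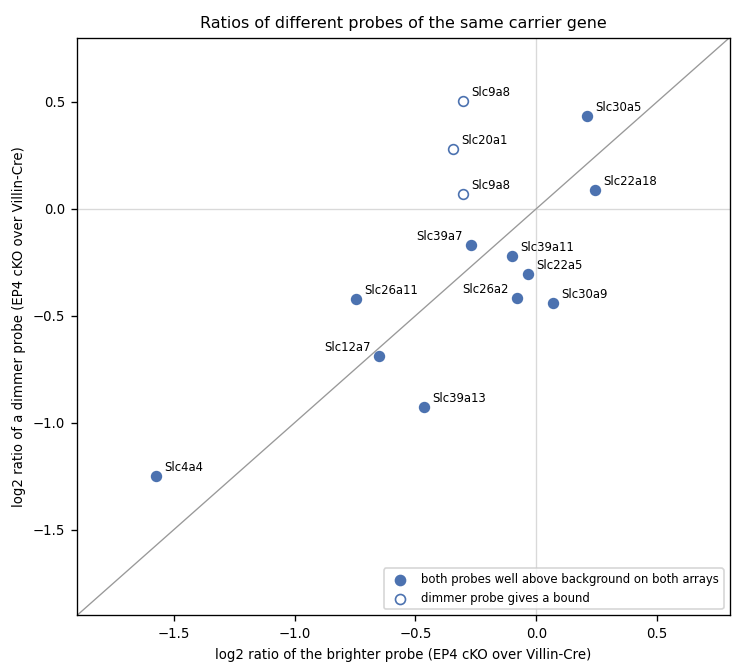
Log2 ratio (EP4 cKO over Villin-Cre) of the brighter probe of a carrier on the horizontal axis and of a dimmer probe of the same carrier on the vertical axis; the line marks equal ratios and open circles are bounds; carriers described in the text are shown. Slc4a4 lies far from 0 on both probes, and the open circles of Slc9a8 and Slc20a1 lie on the other side of 0 from their brighter probe.

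The promoters of 4 carriers past 2-fold are shown. Each holds a motif that was searched for in the 250 bases before the start of transcription of each RefSeq gene (GRCm38.p6). Slc12a9 and Slc34a3 also hold such a motif and are not shown. Slc30a10 and Slc39a5 are the metal carriers that were lower, Slc4a4 was lower on both of its probes, and Slc26a4 was the only kept carrier with the interferon motif. The bases are written 5' to 3' on the strand of the gene with the motif in capitals. In Slc30a10 (chr1:185454598-185454847, plus strand), Slc39a5 (chr10:128401225-128401474, minus strand) and Slc4a4 (chr5:88887010-88887259, plus strand) the capitals mark the core of the metal response element, at which the zinc sensor Mtf1 binds. In Slc26a4 (chr12:31559985-31560234, minus strand) they mark the interferon-stimulated response element.
Slc30a10: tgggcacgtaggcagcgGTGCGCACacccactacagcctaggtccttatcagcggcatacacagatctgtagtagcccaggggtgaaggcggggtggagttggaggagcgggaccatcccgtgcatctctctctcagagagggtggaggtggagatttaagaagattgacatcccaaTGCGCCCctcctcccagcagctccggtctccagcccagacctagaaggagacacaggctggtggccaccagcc
Slc39a5: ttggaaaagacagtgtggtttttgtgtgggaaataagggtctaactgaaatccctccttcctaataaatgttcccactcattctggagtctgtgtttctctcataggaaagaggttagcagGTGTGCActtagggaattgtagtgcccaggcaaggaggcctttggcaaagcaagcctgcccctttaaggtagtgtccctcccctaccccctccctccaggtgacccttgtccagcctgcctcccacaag
Slc4a4: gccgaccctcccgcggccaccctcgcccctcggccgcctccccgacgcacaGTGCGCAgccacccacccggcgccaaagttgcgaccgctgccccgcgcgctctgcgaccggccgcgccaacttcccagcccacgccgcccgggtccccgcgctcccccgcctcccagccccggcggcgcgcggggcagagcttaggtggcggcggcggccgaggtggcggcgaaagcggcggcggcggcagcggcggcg
Slc26a4: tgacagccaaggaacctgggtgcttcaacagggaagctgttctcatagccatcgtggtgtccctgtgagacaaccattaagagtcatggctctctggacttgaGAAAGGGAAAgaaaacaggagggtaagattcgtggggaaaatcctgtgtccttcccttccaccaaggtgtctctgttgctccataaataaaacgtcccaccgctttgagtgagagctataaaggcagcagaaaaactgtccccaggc

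The metal response core was searched as TGCACNC or TGCGCNC on both strands, where N is any base. It lay in the window of 23.8% of 27025 genes, of 23 of 78 carriers with a window (29.5%) and of 19 of 51 kept carriers (37.3%). Among members of the Slc30a and Slc39a families, 10 of 20 held it. Of the 9 carriers past 2-fold that had a window, 5 held it. Besides those shown, these were Slc12a9, which was lower on the EP4 cKO array, and Slc34a3, which was higher. A gene with several starts was counted when any of its windows held the motif, and in Slc39a5 and Slc4a4 the window of a second start held none. Slc39a4 and Slc4a11 had no window. In Slc30a10 it began 73 bases before the start of transcription and, as an overlapping pair of matches, 233 and 232 bases before it. In Slc39a5 it began 129 bases before the start, and in Slc4a4 199 bases before it. The cyclic AMP response element, TGACGTCA, through which genes respond to cyclic AMP, a second messenger of EP4, was found in 1.77% of all genes and in 0 of the 78 carriers in these windows. The interferon-stimulated response element, read as TTTC, then 2 free bases, then TTTC again, was found in 3.46% of all genes and in 4 of 78 carriers, of which Slc26a4 was kept on the arrays. The gamma-activated site, TTCNNNGAA, was found in 8.13% of all genes and in 6 of 78 carriers. No motif overlapped another motif in the windows shown.

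Bicarbonate carriers of the Slc4a family lay mostly lower on the EP4 cKO array with the reported scaling. Relative to the median of all genes, the family median was -0.62 with that scaling, -0.57 with the 75th percentile and -0.56 with the E1A spots. The difference was smaller with loess, at -0.43, and with normexp and quantile normalization, at -0.28. Without the filter on dim probes, where 10 genes entered, it was -0.45. The E1A scaling moves all ratios measured on both arrays by the same amount. Slc4a4, the electrogenic sodium-bicarbonate cotransporter of the basolateral membrane, had signals of 25272 in Villin-Cre and 8480 in EP4 cKO colon, a 2.98-fold lower value (log2 ratio -1.58). A second Slc4a4 probe gave 4628 and 1945, a log2 ratio of -1.25. Both probes thus placed Slc4a4 more than 2-fold lower, and it was the only one of the 15 carriers with several probes for which this was so. Slc4a7, the electroneutral sodium-bicarbonate cotransporter, had signals of 7546 and 4572 (-0.72). Slc4a2, a chloride-bicarbonate exchanger that also regulates cell pH, had 6406 and 5578 (-0.20), and Slc4a9, a further family member, had 254 and 142 (-0.84). In contrast, Slc4a11, best known for its role in the corneal endothelium, was not well above background in the control, with a signal of 107, and reached 263 in EP4 cKO, at least 2.10-fold higher, with a log2 ratio of 0.85 with normexp and quantile normalization. Only 1 of the 2 Slc4a11 probes gave a fold. The median of the 5 Slc4a genes was -0.72 on the log2 scale, with 4 of 5 below 0, beside -0.10 for all genes; with scaling to the E1A spots 1 of 5 lay below 0. Slc4a1, the anion exchanger of red cells, was among the carriers not kept, with 45.2 and 33.5.

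Partners of the bicarbonate carriers gave ratios within 2-fold. Cftr, the apical chloride and bicarbonate channel, had signals of 11788 and 7469 (-0.66). Ahcyl1, which encodes IRBIT, an activator of Slc4a4, had 4071 and 3939 (-0.05). Its relative Ahcyl2 had 49465 and 30523 (-0.70). Of 5 crypt and proliferation markers, Lgr5 (-1.09), Mki67 (-1.12), Ascl2 (-0.93) and Top2a (-0.88) were lower on the EP4 cKO array and Pcna was higher (0.34), with a median log2 ratio of -0.93, and their part in the ratio of Slc4a4 was not tested.

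The Slc26a family exchanges chloride, bicarbonate, sulfate, oxalate and iodide. Slc26a4, known as pendrin, a chloride-bicarbonate and chloride-iodide exchanger, was not well above background on the Villin-Cre array, at 124, and had a signal of 352 on the EP4 cKO array, at least 2.81-fold higher (log2 ratio of at least 1.49), and 0.92 with normexp and quantile normalization. Slc26a1, a sulfate and oxalate exchanger, had signals of 149 and 257 (0.78). Slc26a1 thus lay just over the floor of the control array. Slc26a2, the sulfate transporter that supplies sulfate for mucins and proteoglycans, had 9084 and 8598 (-0.08), a difference whose sign turned to 0.08 with scaling to the 75th percentile and to 0.96 with the E1A spots. Its second probe gave 915 and 685 (-0.42), and the mean of its probes was -0.25. Slc26a6, an apical exchanger of chloride, bicarbonate and oxalate, had 805 and 640 (-0.33). Slc26a11, a sulfate transporter, had 1593 and 949 (-0.75), and its second probe gave -0.42. The other 5 of the 10 Slc26a genes were not kept.

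The sodium-proton exchangers kept here lay within 2-fold with the reported scaling, while 4 of 7 were more than 2-fold higher with scaling to the E1A spots, as were 39.7% of all genes. Slc9a2, an apical exchanger of the intestine, had signals of 6847 and 9128 (0.41). Slc9a8, found at the apical membrane and in the Golgi, had 17390 and 14107 (-0.30), while its dimmer probes, above background on the EP4 cKO array only, gave bounds of 0.50 and 0.07 in the other direction. The direction of Slc9a8 therefore depended on the probe, and it also turned to 0.74 with scaling to the E1A spots. Of the exchangers of internal compartments, Slc9a7 had 343 and 401 (0.23) and Slc9a9 had 417 and 423 (0.02). Slc9a5, an exchanger described mainly in brain, had 5125 and 3921 (-0.39). The median of the 7 genes was 0.02, with 4 of 7 above 0 and, with scaling to the E1A spots, 7 of 7. Slc9a3, the main sodium-proton exchanger of salt absorption, does not belong to the 99 carriers by the rule and had signals of 1661 and 18703, 11.3-fold higher. The other genes outside the rule, the chloride-bicarbonate exchanger Slc26a3 and the sodium-potassium-chloride cotransporter Slc12a2, had log2 ratios of 0.41 and -0.16.

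Scaffolds and subunits of the sodium-proton exchangers gave 0 of 6 past 2-fold, with a median of 0.44. Slc9a3r1, the PDZ scaffold that holds exchangers at the apical membrane, had signals of 21973 and 42337 (0.95). Ezr, which links that scaffold to actin, had 67819 and 102544 (0.60), and Chp1, an obligatory subunit of several exchangers, had 45135 and 66030 (0.55). Chp2, a related subunit, had 8131 and 5724 (-0.51). Of the 6 partners with a value, 5 had a ratio above 0.

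The sodium-calcium exchangers of the Slc8a family expel calcium. Slc8a3 had signals of 8497 and 12200 (0.52), and its second probe was too close to background to give a fold. Slc8a1 and Slc8a2 were above background on the EP4 cKO array only, with signals of 99.6 and 69.8 for Slc8a1 and of 73.6 and 105 for Slc8a2.

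Cation-chloride cotransporters move chloride together with sodium or potassium. Slc12a3, the thiazide-sensitive sodium-chloride cotransporter known from the kidney, had a signal of 260 on the Villin-Cre array and was not well above background on the EP4 cKO array, at 14.7, at least 4.50-fold lower (log2 ratio of at most -2.17), a bound that was -1.05 on the log2 scale with the higher of the 2 floors used for both arrays. Slc12a9, an orphan member of the family, had 619 and 274, a 2.26-fold lower value (-1.18), which was -0.92 with loess, -0.65 with normexp and quantile normalization and -0.14 with the E1A spots. The potassium-chloride cotransporters, which lower cell chloride and cell volume, lay within 2-fold. Slc12a7 had 6942 and 4416 (-0.65) with -0.69 on its second probe. Slc12a4 was above background on the EP4 cKO array only, with 85.6 and 148 (bound 0.24). Apart from this group, the family member Slc12a8 had 3903 and 5778 (0.57). The median of the 6 genes was -0.48, with 4 of 6 below 0 and, with scaling to the E1A spots, 2 of 6.

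The kinases that regulate these cotransporters gave 0 of 7 past 2-fold, with a median of -0.13. Wnk4 had signals of 1604 and 817 (-0.97), close to the 2-fold line. Wnk1, with 4308 and 3926 (-0.13), and the downstream kinases Stk39 (-0.20) and Oxsr1 (-0.03) differed less. Cab39, a scaffold that activates those kinases, had 22066 and 34108 (0.63).

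Of the 5 phosphate carriers kept, 1 was past 2-fold. Slc34a3, a sodium-phosphate cotransporter known from the proximal tubule, was not well above background on the Villin-Cre array, at 26.4, and had a signal of 524 on the EP4 cKO array, at least 4.18-fold higher (log2 ratio of at least 2.06). Only 1 of the 2 Slc34a3 probes gave a fold. Slc34a1, with 119 and 97.3, and Slc34a2, the cotransporter of the small intestine, with 62.1 and 64.8, were above background on the EP4 cKO array only and gave no fold. Slc34a2 thus passed the background filter narrowly, whereas Slc13a3, with 123 and 11.7, did not pass it on either array. Slc20a1, a widely expressed sodium-phosphate cotransporter, had 40437 and 31869 (-0.34), turning to 0.70 with scaling to the E1A spots, while its dimmer probe gave a bound of 0.28. Slc20a2 had 3369 and 3188 (-0.08). Xpr1, the phosphate exporter, had 21166 and 11056 (-0.94).

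Of the Slc13a family, which carries sulfate and the intermediates of the citric acid cycle, 1 of 5 genes was kept. Slc13a2, the apical sodium-dicarboxylate cotransporter for citrate and succinate, had signals of 17700 and 30897, a 1.75-fold higher value (0.80). Its ratio lay between 0.77 and 0.96 under every alternative except scaling to the E1A spots, where it was 1.85.

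Organic ion carriers of the Slc22a family made up 14 of the 66 carriers, and 2 of the 14 were past 2-fold, both lower. The share was 14.3%, against 7.98% of all genes. Of the members well above background on both arrays, 7.69% were more than 2-fold lower, against 6.26% of all such genes. Slc22a6, the organic anion transporter OAT1 known from the kidney, had signals of 477 and 160, a 2.98-fold lower value (-1.58), which was -0.74 with normexp and quantile normalization and -0.53 with the E1A spots. Slc22a30, a rodent relative of the organic anion transporters, had 156 on the Villin-Cre array and was not well above background on the EP4 cKO array, at 11.54, at least 2.69-fold lower. That bound rests on the floor of the EP4 cKO array and, with the higher of the 2 floors used for both arrays, was -0.31 on the log2 scale. Only 1 of the 3 Slc22a30 probes gave a fold. Further members lay lower by less than 2-fold. Slc22a13b, which was matched through a non-coding RefSeq record, had 397 and 211 (-0.91). Slc22a8, the kidney transporter OAT3, had 249 and 172 (-0.54), and Slc22a13 had 466 and 420 (-0.15). Slc22a28 had 774 and 815 (0.07).

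Carriers of organic cations and carnitine, and the orphans of the family, lay within 2-fold. Slc22a5, the sodium-dependent carnitine transporter OCTN2, had signals of 3737 and 3647 (-0.04), and -0.30 on its second probe. Slc22a21, a further carnitine transporter, had 1039 and 886 (-0.23), and Slc22a16, also a carnitine transporter, had 454 and 651 (0.52). Slc22a18, an imprinted gene, had 36382 and 43046 (0.24) with 0.09 on its second probe, and the orphan Slc22a23 had 15900 and 18700 (0.23). Slc22a15 had 532 and 276 (-0.95), close to the 2-fold line. Slc22a17, the receptor of lipocalin 2, had 242 and 141 (-0.78), and the log2 ratios of its 10 repeated spots ranged from -1.12 to -0.56 with an SD of 0.19. Over the 14 genes the median was -0.19, with 9 of 14 below 0, 7 of 14 with scaling to the 75th percentile and 2 of 14 with the E1A spots.

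Of the efflux partners of these carriers, 4 of 6 had a value and 0 were past 2-fold. The ATP-driven exporters Abcb1a (33388 and 26360, -0.34), Abcc3 (27893 and 32754, 0.23) and Abcg2 (19740 and 21959, 0.15) were well above background on both arrays. Of the sodium pump, 0 of 5 genes were past 2-fold. Its regulator Fxyd4 had signals of 105156 and 63455 (-0.73).

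**Figure D3:**
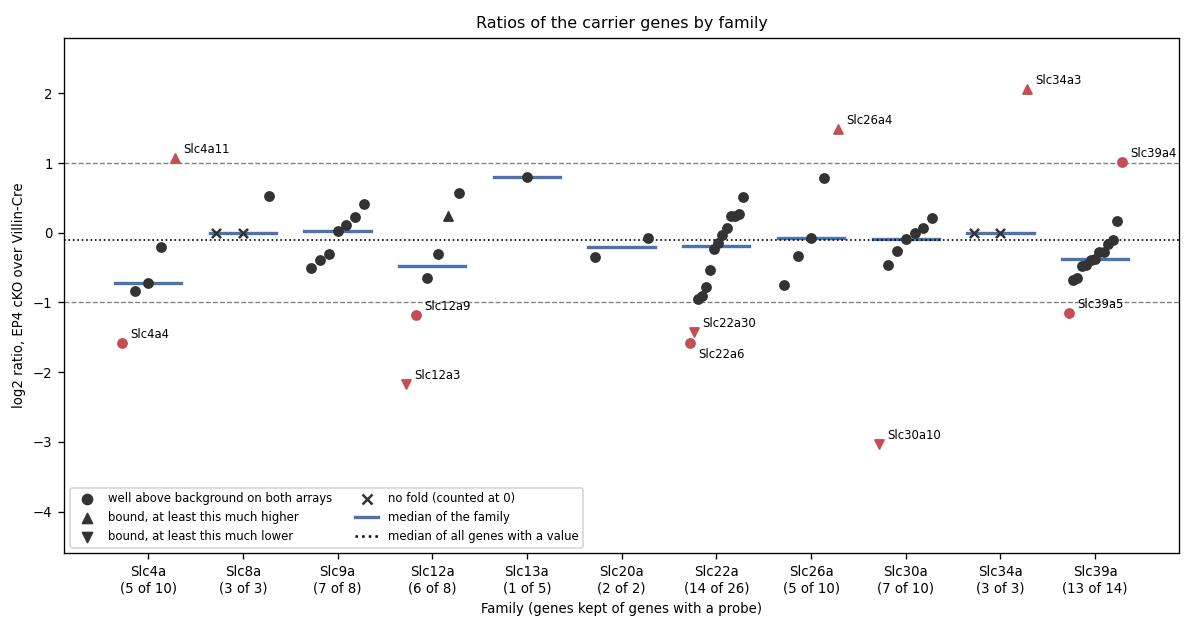
Log2 ratio (EP4 cKO over Villin-Cre) of each carrier by family; red marks are carriers past 2-fold (dashed lines), triangles are bounds, crosses had no fold, blue bars are family medians and the dotted line is the median of all genes with a value. No red mark lies in Slc8a, Slc9a, Slc13a or Slc20a, and 11 of 13 Slc39a genes lie below 0, while 1 of 13 did so with scaling to the E1A spots.

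Zinc importers of the Slc39a family lay mostly a little lower on the EP4 cKO array, except with scaling to the E1A spots, and Slc39a4 lay higher under every scaling. Slc39a4, the zinc importer ZIP4 of the apical membrane, had signals of 96806 and 196390, a 2.03-fold higher value (log2 ratio 1.02, software error 0.20), so that it lay at the 2-fold line within that error. Slc39a5, the zinc importer of the basolateral membrane, had 3457 and 1563, a 2.21-fold lower value (-1.15). Slc39a5 lay at -0.99 with the 75th percentile, -0.94 with normexp and quantile normalization and -0.10 with the E1A spots, the last within its software error of 0.20. Of 6 markers of surface colonocytes, Krt20 (log2 ratio 1.80) and, barely, Aqp8 (1.003) were past 2-fold, both higher on the EP4 cKO array, and Guca2a (-0.75) and Car1 (-0.42) had log2 ratios below 0. Their summed signal was 1.62 times higher, and their part in the ratio of Slc39a4 was not tested. Slc39a3 had 4457 and 2798 (-0.67) and Slc39a2 had 223 and 142 (-0.65).

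The remaining importers lay nearer to equal signals. Slc39a14 and Slc39a8, which carry manganese and iron as well as zinc, had 1875 and 1348 (-0.48) and 1890 and 1461 (-0.37). Slc39a13, an importer of the secretory pathway, had 1038 and 753 (-0.46), with -0.93 on its second probe. Slc39a6 had 449 and 342 (-0.39), Slc39a9 had 3479 and 2860 (-0.28), and Slc39a10 had 145 and 164 (0.17). Slc39a7, which releases zinc from the endoplasmic reticulum, had 55072 and 45683 (-0.27) with -0.17 on its second probe. Slc39a1 had 32175 and 28762 (-0.16), and Slc39a11 had 52297 and 48820 (-0.10) with -0.22 on its second probe, although Slc39a1, Slc39a7 and Slc39a11 turned to 0.88, 0.77 and 0.94 with scaling to the E1A spots and Slc39a11 to 0.06 with the 75th percentile.

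Over the 13 Slc39a genes kept, of 14 with a probe, the median was -0.37, with 11 of 13 below 0 and, with scaling to the E1A spots, 1 of 13 below 0. Relative to the median of all genes under the same scaling, the family median was lower by every scaling tried, at -0.27 as reported, -0.21 with the 75th percentile, -0.22 with normexp and quantile normalization, -0.20 with loess and -0.20 with the E1A spots. Without the filter on dim probes, where 14 genes entered, the difference from all genes was -0.013.

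In the Slc30a family of exporters, 1 of 7 genes was past 2-fold. Slc30a10, the manganese exporter of the plasma membrane, had a signal of 491 on the Villin-Cre array and was not well above background on the EP4 cKO array, at 60.0, at least 8.18-fold lower (log2 ratio of at most -3.03), or -1.97 with the higher floor used for both arrays. Slc30a1, the zinc exporter of the plasma membrane, had 2776 and 2325 (-0.26). Slc30a7, which loads zinc into the secretory pathway, had 1405 and 1024 (-0.46). Slc30a5 and Slc30a6, which work there as a pair, had 2127 and 2457 (0.21) and 6990 and 6941 (-0.01). Slc30a4, a vesicular transporter, had 8668 and 8182 (-0.08), a sign that turned to 0.07 with scaling to the 75th percentile and to 0.96 with the E1A spots. Slc30a9 had 1415 and 1483 (0.07), and its second probe gave -0.44. The family median was -0.08 over 7 of 10 genes, with 5 of 7 below 0, 3 of 7 with scaling to the 75th percentile and 1 of 7 with the E1A spots.

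Of 5 genes that store and sense zinc, Mt2 was more than 2-fold lower and Mt4 more than 2-fold higher. Mt2, a metallothionein that binds zinc and whose promoter responds to it, had signals of 171297 and 57209, a 2.99-fold lower value (-1.58). Mt1, its close relative, had 655875 and 452514 (-0.54). Both of these metallothioneins, which most tissues express, were thus lower with the reported scaling, Mt2 also with the E1A spots, while Mtf1, the zinc-sensing factor, had 7642 and 11851 (0.63). Mt3, known from the brain, had 1621 and 1350 (-0.26). Mt4, known from stratified epithelia, was above background on the EP4 cKO array only, with 112 and 300.35 (bound 1.26). Over all 35 partner genes of the carriers, 31 had a value, with 1 higher, 1 lower and a median of -0.05.

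The 11 carriers past 2-fold differed in how far their ratios depended on the processing. Slc4a4 lay between -1.60 and -1.41 under every alternative except scaling to the E1A spots, where it was -0.53. Slc39a4 lay between 1.02 and 1.18 without that scaling, and was 2.06 with it. Slc30a10 and Slc34a3 passed the filter through 1 array only, so both drop out when both arrays must be above background. Their bounds were -1.97 and 2.06 with 1 floor for both arrays, and their ratios -1.23 and 1.46 with normexp and quantile normalization. Slc12a3, Slc12a9, Slc22a6, Slc22a30, Slc26a4, Slc39a5 and Slc4a11 fell within 2-fold when the background was corrected with normexp and the arrays were quantile normalized.

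**Figure D4:**
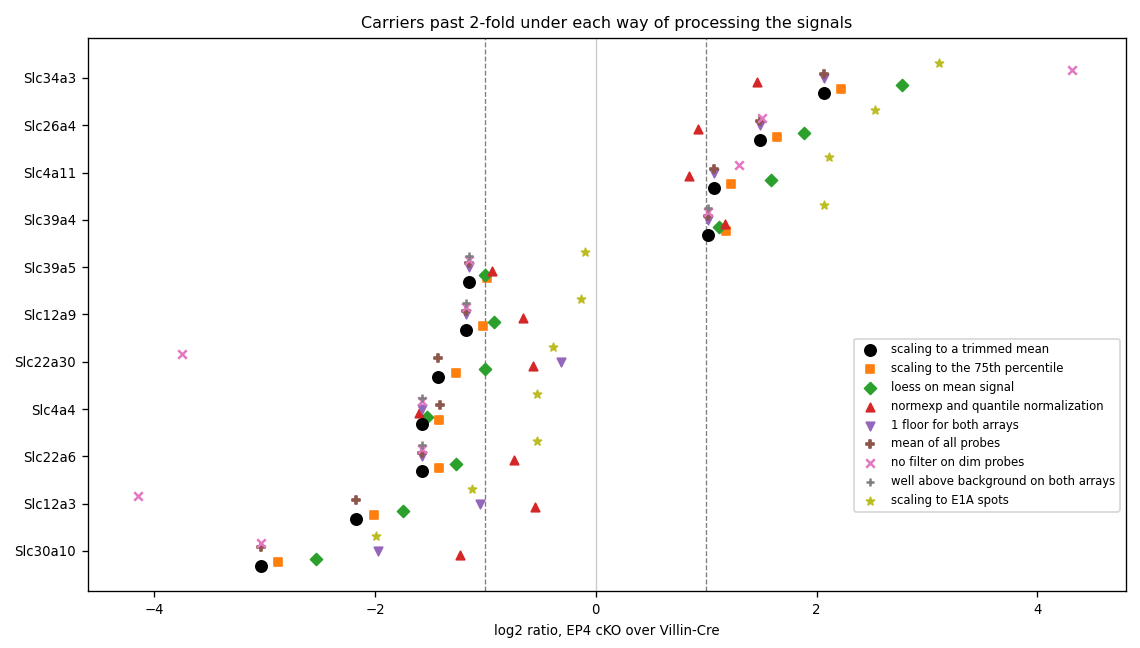
Log2 ratio (EP4 cKO over Villin-Cre) of the 11 carriers past 2-fold under the reported scaling to a trimmed mean (black circles) and under each alternative (coloured marks); dashed lines mark 2-fold. Marks of Slc30a10, Slc12a3, Slc22a30, Slc34a3, Slc26a4 and Slc4a11 are bounds or ratios to a signal not above background. Of the 5 carriers measured on both arrays, Slc39a4 has all marks past 2-fold and Slc4a4 all but that of the E1A spots.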

How the data were processed

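Each array was assigned to its genotype from its labels. The authors deposited the output of the Agilent scanner software (Feature Extraction 12.0.3.1 per the file headers, 11.5.1.1 per the submitters' processing notes). The deposited intensity of a spot had its background subtracted and spatial trends removed by the software, and low values replaced by a small positive one. Whole-colon RNA had been amplified and labelled with Cy3. Here, control and outlier spots (147 and 126 gene spots) were left out, spots of a probe were averaged, and each array was scaled to a mean of 2500 after trimming 2% at each end, the study's own method, with factors of 3.45 (Villin-Cre) and 2.68 (EP4 cKO). No spot was saturated. Of 56593 probes, 45.4% and 51.6% were well above background, and 58.3% matched a RefSeq gene through their accession (GRCm38.p6). The array's probe sequences and protein sequences were not used here.

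Each gene was represented by its brightest probe. Calls used the study's 2-fold threshold; 1 array per genotype allows no test, and their number limits the precision. The named genes were those past 2-fold, the brightest of each family, the 10 brightest carriers and the dimmest kept, and other kept carriers are given too, except for a few genes that are not reported here. Members and gene lists were chosen with earlier results of these data known. Alternatives were normexp background correction with quantile normalization (limma 3.58.1, R 4.3.3), loess, scaling to the 75th percentile or to E1A spots, other filters, thresholds and probe rules. The scripts (Python 3.11.15) were tested on simulated data.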

Additional observations from a re-analysis of the deposited data

How the results depend on the processing

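No direction of a carrier past 2-fold turned under any alternative, but their number did change, and the cause was not tested. With 4 carriers higher and 7 lower as reported, a 3-fold threshold gave 1 and 2 (2.22% and 3.74% of all genes), and a 1.5-fold threshold gave 6 and 16 (9.87% and 18.7% of all genes). Normexp with quantile normalization gave 2 higher and 2 lower with a median log2 ratio of -0.13, and 4 of the 11 carriers stayed past 2-fold. Scaling to E1A spots gave 23 higher and 2 lower with a median of 0.78, and 6 of the 11 stayed. Requiring both arrays above background left 1 higher and 4 lower, median -0.26, since 6 of the 11 were bounds, so that 5 stayed. Without the filter on dim probes, which brings in all 99 carriers, 4 were higher and 32 lower (5.12% and 31.7% of all genes) and the median was -0.46. The median was -0.024 with the 75th percentile and -0.083 with loess. The median of all genes shifted by 0.10, 0.10, 0.14 and -0.27 with the 75th percentile, normexp, loess and no filter. Slc39a5 came within 2-fold with the 75th percentile (-0.99), Slc12a9 with loess (-0.92), and Slc22a30 (-0.31) with 1 floor for both arrays, an alternative chosen after seeing the data. No paired analysis was possible because each genotype had 1 array, and for the same reason no sample could be left out. Signals near the floors of 125 and 57.8 give bounds only.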
